A study of Homo sapiens with 6 samples.

Results

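Extracellular matrix genes of the collagen, fibrillin and fibulin families, with fibronectin and a set of matricellular genes, were followed in the human prostate carcinoma line DU145 after a hairpin against E6AP. E6AP, the product of UBE3A, attaches ubiquitin to other proteins and is a ligase of the HECT family. Members were the rows of the deposited count table whose symbol is a collagen chain (COL, a number, A, a number), FBN1 or FBN2, FBLN1 to FBLN7, FN1, POSTN, SPARC, TNC, THBS1 or THBS2. This symbol rule found 55 genes among 33835, of which 43 were collagen chains and 12 were other matrix genes. No measured value entered the rule.

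The shE6AP group (3 libraries) was DU145 cells transduced with a hairpin against E6AP, and the wobble group (3 libraries) was DU145 cells transduced with the wobble control, whose sequence is not described. Doxycycline at 0.2 µg/ml for 2.5 days induced the knockdown, and the treatment is stated for the series without setting the wobble cells apart. Total RNA from whole cultures was sequenced, and a bulk measurement cannot tell fewer cells of a type from less RNA per cell. Whether a group was a pool or a clone of transduced cells, or its libraries separate cultures, is not stated, so p-values reflect the spread among these libraries alone, and that spread may be technical. Levels are read counts divided by TMM-scaled library sizes and put on the usual CPM scale, and each log2 fold change compares shE6AP with wobble and is given with a standard error (SE).

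Collagens are helical trimers, built from one kind of chain or from the products of several genes. Fibrillar collagens (types I, II, III, V, XI, XXIV and XXVII) form banded fibres of connective tissue, and basement membrane collagens (here types IV, XV and XVIII) lie in the sheet beneath epithelia. FACIT collagens decorate fibrils, type VI forms beaded filaments, and transmembrane collagens anchor cells to the matrix. Fibrillins build the microfibrils on which elastic fibres form, fibulins bridge these to other matrix proteins, and matricellular proteins such as tenascin C and thrombospondins adjust how cells hold to the matrix. In the body most interstitial matrix is made by fibroblasts, while epithelial cells make basement membrane components.

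Gene reads ran from 21558506 to 30488217 per library, and in the shallowest library 3 reads equalled 0.141 CPM. The targeted transcript, UBE3A, stood at 14.6 ± 0.376 CPM in shE6AP and 55.8 ± 1.97 CPM in wobble (SD, n = 3), with no overlap between the groups (adjusted p = 2.52e-31 from edgeR's quasi-likelihood test, adjusted by Benjamini and Hochberg's method over all tested genes). By exact permutation, two-sided, its log2 CPM gave p = 0.1, the smallest that 3 libraries against 3 allow. Of 8 epithelial markers, 7 passed the filter and KRT5 was near 0; they summed to between 2165 and 2218 CPM in shE6AP and between 2793 and 2930 CPM in wobble. KRT7 made up most of that sum, at 1120 ± 8.57 CPM in shE6AP and 1911 ± 61.0 CPM in wobble. Of the 7 tested, 4 rose (EPCAM 2.05-fold, ESRP1 2.53-fold, KRT8 and KRT18) and 3 fell (KRT7, KRT19 and CDH1). Over all genes tested, 28.6% were called higher and 30.4% lower. Of 8 fibroblast markers, FAP was not analysed here, PDGFRA, PDGFRB, DCN, LUM and THY1 averaged under 1 CPM in both groups, and the sum ran from 19.4 to 20.5 CPM in shE6AP and from 19.7 to 21.4 CPM in wobble, carried by ACTA2 and TWIST2. Endothelial markers summed to between 1.19 and 1.75 CPM in shE6AP and between 1.25 and 1.32 CPM in wobble, each gene under 1 CPM, with PECAM1 not analysed here. Blood cell markers summed to between 5.29 and 6.34 CPM in shE6AP and between 3.36 and 4.43 CPM in wobble, mostly LYZ and CD14, of which CD14 rose 3.38-fold, with PTPRC under 1 CPM in both groups and CD3E and HBB not analysed here. The part of these marker differences in the results below was not tested.

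Type IV collagen genes sit head to head in pairs that share a promoter region, and one pair moved together while another moved apart. Their regions are shown to place the paired genes, with no test of a link between sequence and change, and those of FBLN1 and FBN1 because these genes had the lowest fold changes among fibulins and fibrillins. Sequences are from RefSeq (GRCh38.p14), matched by symbol, 250 bases before to 50 after a start site, 5′ to 3′ on the gene's strand. Capitals mark the GC box GGGCGG and the CCAAT box CCAAT, each on either strand; a match is a description and not a site of binding. The COL4A2 window, chr13:110307034-110307333 on the plus strand, also spans the COL4A1 start, which lies 127 bases from that of COL4A2 on the other strand.
COL4A2: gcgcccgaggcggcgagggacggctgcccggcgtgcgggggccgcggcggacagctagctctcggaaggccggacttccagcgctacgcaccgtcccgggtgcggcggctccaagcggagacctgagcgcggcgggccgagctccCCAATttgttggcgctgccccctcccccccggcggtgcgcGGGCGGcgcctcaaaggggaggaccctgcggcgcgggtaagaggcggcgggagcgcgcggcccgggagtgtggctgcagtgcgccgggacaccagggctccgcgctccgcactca
The COL4A3 window is chr2:227164374-227164673 on the plus strand and the COL4A4 window chr2:227164156-227164455 on the minus strand, with starts 419 bases apart and 82 bases shared between the windows.
COL4A3: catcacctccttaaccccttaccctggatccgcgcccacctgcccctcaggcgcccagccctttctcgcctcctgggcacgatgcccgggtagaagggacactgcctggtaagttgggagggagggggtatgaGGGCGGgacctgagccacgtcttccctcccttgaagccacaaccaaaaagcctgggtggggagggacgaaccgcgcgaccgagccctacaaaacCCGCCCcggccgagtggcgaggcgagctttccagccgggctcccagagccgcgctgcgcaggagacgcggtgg
COL4A4: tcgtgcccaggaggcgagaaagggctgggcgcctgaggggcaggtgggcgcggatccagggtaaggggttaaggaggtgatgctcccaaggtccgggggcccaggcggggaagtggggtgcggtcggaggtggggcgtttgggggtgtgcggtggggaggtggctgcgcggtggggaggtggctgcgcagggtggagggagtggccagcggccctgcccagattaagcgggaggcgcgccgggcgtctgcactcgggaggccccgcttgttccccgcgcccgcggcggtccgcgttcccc
The FBLN1 window is chr22:45502633-45502932 on the plus strand and the FBN1 window chr15:48644921-48645220 on the minus strand.
FBLN1: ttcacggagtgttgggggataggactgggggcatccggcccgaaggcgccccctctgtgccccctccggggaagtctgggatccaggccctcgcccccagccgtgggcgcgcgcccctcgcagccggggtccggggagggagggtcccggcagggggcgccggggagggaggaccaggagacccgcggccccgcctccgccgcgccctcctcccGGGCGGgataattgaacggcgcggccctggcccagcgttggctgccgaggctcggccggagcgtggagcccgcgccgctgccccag
FBN1: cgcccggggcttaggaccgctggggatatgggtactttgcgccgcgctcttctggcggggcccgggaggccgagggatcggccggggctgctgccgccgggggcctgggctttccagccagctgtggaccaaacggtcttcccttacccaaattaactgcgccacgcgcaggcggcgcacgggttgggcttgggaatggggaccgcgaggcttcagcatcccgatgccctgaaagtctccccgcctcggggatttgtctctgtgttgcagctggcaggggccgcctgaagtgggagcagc
The COL4A2 window held 1 GC box and 1 CCAAT box, the COL4A3 window 2 GC boxes, the FBLN1 window 1 GC box, and the COL4A4 and FBN1 windows none of either. Promoter windows were found for 43 of the 55 members (57 windows). A GC box stood in 57.9% of these and in 45.0% of all 35116 RefSeq windows of 300 bases, a CCAAT box in 33.3% and 34.6%. A TATA box (TATAAA) stood in 19.3% of member windows and 11.5% of all, and an AP-1 site (TGANTCA) in 3.51% and 7.71%, both strands searched.

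Of the 55 members, 40 passed the filter on low counts and were tested; 15 did not (COL2A1, COL4A5, COL4A6, COL5A3, COL6A5, COL6A6, COL9A1, COL10A1, COL11A1, COL15A1, COL19A1, COL22A1, COL23A1, FBN2 and SPARC), with at most 12 reads in a library and a mean of at most 0.292 CPM in either group. Among those tested, 29 (72.5%) passed the threshold (adjusted p under 0.05 in edgeR), where 59.0% of all 19433 genes tested did. Of the members 13 rose and 16 fell in shE6AP, against a background of 28.6% higher and 30.4% lower, and 11 did not pass. With a background this high, a call alone sets no gene apart. The median log2 fold change was -0.10 over the tested members and 0.01 over all genes, and the median size without sign was 0.62 against 0.26. Of the 40, 11 (27.5%) were called and at least doubled or halved, 6 of them higher and 5 lower; 6.74% of all genes tested were, 3.23% higher and 3.51% lower. The groups did not overlap in 30 members, 13 higher and 17 lower (the 29 called and COL6A3), and in 62.6% of all genes tested, 30.6% higher and 31.9% lower. A gene that passed the filter only through the group where it is high had to differ, so these counts are a description.

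**Figure D1:**
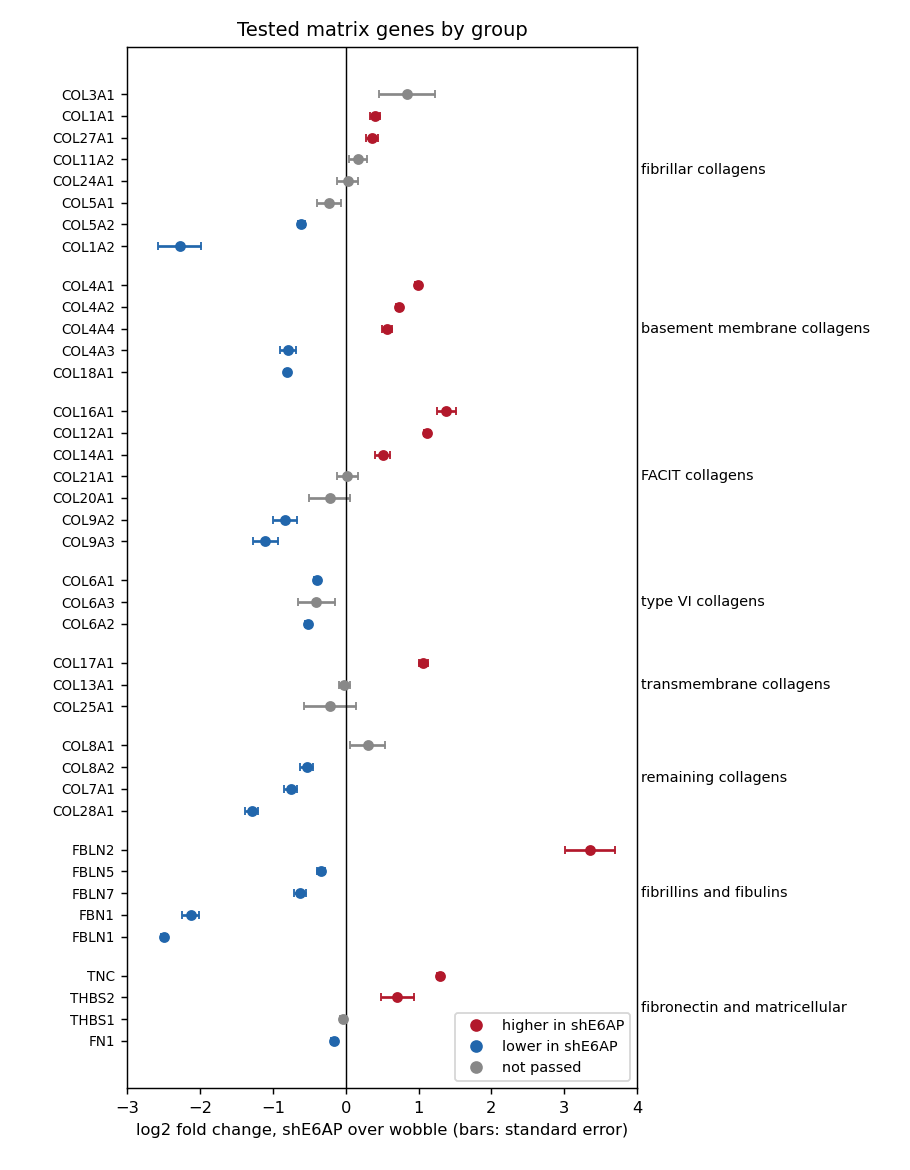
Fold change from wobble to shE6AP on a log2 axis (horizontal; bars are the SE) for 39 of the 40 tested matrix genes, ordered by group; POSTN, with 0 reads in wobble, is left out. Red genes were higher, blue lower and grey did not pass; COL1A2, FBN1 and FBLN1 lie beyond -2 and FBLN2 at 3.35.

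Basement membrane collagens changed in opposite directions by chain. Of 5 tested genes, COL4A1, COL4A2 and COL4A4 rose and COL4A3 and COL18A1 fell, where 28.6% of all genes tested were higher and 30.4% lower. COL4A1, a chain of the ubiquitous type IV network, measured 87.2, 88.2 and 86.6 CPM in shE6AP libraries 1 to 3 and 43.3, 44.2 and 44.2 CPM in wobble libraries 1 to 3. The groups lay far apart, at a 1.99-fold higher level in shE6AP (log2 fold change 0.99, SE 0.0387, adjusted p = 3.33e-25 in edgeR). COL4A2, its partner in the same trimer, measured 136, 140 and 144 CPM in shE6AP and 86.9, 84.3 and 81.8 CPM in wobble. It too was higher in every shE6AP library (log2 fold change 0.73, SE 0.0362, adjusted p = 1.88e-21 in edgeR).

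The other pair, COL4A3 and COL4A4, encodes chains of the type IV network of kidney glomerulus, lung and inner ear. COL4A3 measured 3.37, 3.51 and 2.84 CPM in shE6AP and 5.55, 5.64 and 5.68 CPM in wobble. Every shE6AP library was below every wobble library (log2 fold change -0.80, SE 0.115, adjusted p = 8.15e-08 in edgeR). COL4A4 went the other way, at 16.5, 18.6 and 18.5 CPM in shE6AP and 11.6, 12.5 and 11.8 CPM in wobble, again without overlap (log2 fold change 0.57, SE 0.0679, adjusted p = 9.34e-10 in edgeR). Per kilobase of transcript, the ratio of COL4A3 to COL4A4 was 0.225 ± 0.032 in shE6AP and 0.582 ± 0.0211 in wobble, and that of COL4A1 to COL4A2 was 0.614 ± 0.0199 and 0.512 ± 0.0213 (SD, n = 3). COL4A5 and COL4A6, the third pair, were not tested; COL4A5 had 10, 3 and 7 reads in shE6AP and 0 in each wobble library. COL4A5 in shE6AP was 7.79-fold above a floor of 3 reads over the wobble group. The floor covers counting error in wobble only, and the error of the shE6AP reads is not allowed for. COL4A6 had 2, 8 and 4 reads in shE6AP and 8, 9 and 6 in wobble.

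COL18A1, which encodes the proteoglycan collagen that yields endostatin, measured 175, 174 and 176 CPM in shE6AP and 310, 307 and 301 CPM in wobble. The groups did not overlap, and 57.2% of the wobble level remained (log2 fold change -0.81, SE 0.0321, adjusted p = 7.03e-25 in edgeR). Its principal transcript shares 1401 exonic bases (23.6%) with SLC19A1 on the other strand, and the TruSeq v2 kit does not mark strand, so reads there cannot be told apart. SLC19A1 had a log2 fold change of 0.29, at 85.0 ± 1.28 CPM in shE6AP and 69.6 ± 3.19 CPM in wobble. Exonic overlaps of THBS1, TNC, COL9A3 and COL19A1 with other genes of the count table covered between 1.12% and 3.04% of the transcript. Type IV transcripts summed to 249 ± 4.59 CPM in shE6AP and 146 ± 2.06 CPM in wobble. With COL18A1 and COL15A1 added, the basement membrane class summed to 424 ± 4.54 and 452 ± 6.67 CPM (SD, n = 3), and COL18A1 made up 41.3% and 67.7% of that sum.

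**Figure D2:**
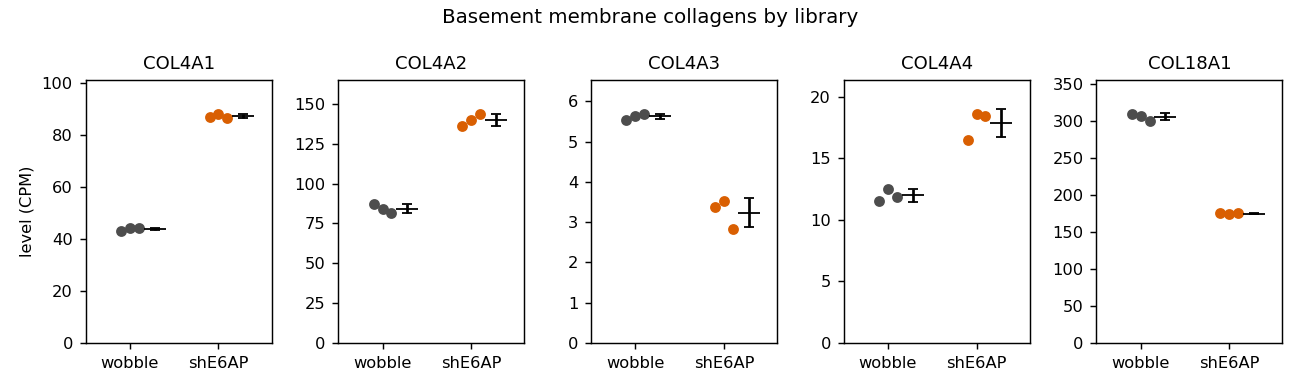
Level in CPM (vertical axis, from 0) of the 5 tested basement membrane collagens in the 3 libraries of each group (points), with mean and SD beside them. COL4A1, COL4A2 and COL4A4 lie higher in shE6AP, COL4A3 and COL18A1 lower, with no overlap in any panel.

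Fibrillar collagens summed to less than the basement membrane, FACIT or type VI collagens in either group and changed in both directions. Over all genes tested, 28.6% were called higher and 30.4% lower. Of 8 tested fibrillar genes, COL1A1 and COL27A1 rose, COL1A2 and COL5A2 fell, and COL3A1, COL5A1, COL11A2 and COL24A1 did not pass. The most abundant, COL5A2, a chain of the type V collagen that sets fibril diameter, measured 22.4, 21.8 and 23.9 CPM in shE6AP and 34.6, 35.5 and 34.0 CPM in wobble. It was lower in every shE6AP library (log2 fold change -0.61, SE 0.0509, adjusted p = 4.83e-14 in edgeR). COL5A1, which joins COL5A2 in the same trimer, had 1.85 ± 0.228 CPM in shE6AP and 2.14 ± 0.217 CPM in wobble, with overlapping groups.

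The chains of type I collagen, the main protein of bone and skin, went apart. COL1A1 measured 18.1, 17.4 and 16.6 CPM in shE6AP and 13.4, 14.2 and 11.8 CPM in wobble, higher in shE6AP without overlap (log2 fold change 0.40, SE 0.0687, adjusted p = 2.31e-06 in edgeR). COL1A2 had 7, 6 and 5 reads in shE6AP and 37, 38 and 29 reads in wobble. As levels these were 0.245 ± 0.0362 and 1.2 ± 0.124 CPM (SD, n = 3; log2 fold change -2.28, SE 0.301, adjusted p = 1.07e-08 in edgeR), the lowest fold change of any tested collagen chain. COL1A2 passed the low-count filter through the wobble libraries alone, so it had to differ and its adjusted p is a description. Per kilobase the ratio of COL1A1 to COL1A2 was 57.6 ± 7.12 in shE6AP and 8.79 ± 0.114 in wobble, values that rest on few COL1A2 reads. COL27A1 had a log2 fold change of 0.36 and stood at 10.7 ± 0.416 CPM in shE6AP against 8.37 ± 0.348 CPM in wobble. COL3A1, of blood vessel and skin fibres, had at most 16 reads in a library and did not pass (log2 fold change 0.84, adjusted p = 0.056 in edgeR). Without wobble replicate 2, COL3A1 and COL11A2 passed too, which made 4 fibrillar genes higher; COL3A1 also passed without shE6AP replicate 1. The class summed to 61.2 ± 0.999 CPM in shE6AP and 66.8 ± 3.4 CPM in wobble.

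Among the other collagens, 4 of 17 tested genes rose and 7 fell, where 28.6% of all genes tested were higher and 30.4% lower. COL12A1, a FACIT collagen of dense connective tissue, measured 154, 169 and 165 CPM in shE6AP and 74.2, 74.4 and 76.9 CPM in wobble. All shE6AP libraries were well above all wobble libraries (log2 fold change 1.11, SE 0.0374, adjusted p = 1.34e-27 in edgeR). COL16A1, a related FACIT collagen, measured 4.98, 5.71 and 5.42 CPM against 2.08, 2.25 and 1.81 CPM (log2 fold change 1.38, SE 0.129). COL14A1, which binds decorin on fibrils, measured 6.0, 6.70 and 6.34 CPM against 4.36, 4.43 and 4.54 CPM (log2 fold change 0.51, SE 0.102). These 3 rose without overlap between the groups.

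The type IX chains, FACIT collagens best known from cartilage, fell at low levels. COL9A2 measured 1.82, 1.17 and 1.84 CPM in shE6AP and 3.01, 3.25 and 2.51 CPM in wobble (log2 fold change -0.84, SE 0.166). COL9A3 measured 1.68, 1.03 and 1.29 CPM against 2.81, 3.01 and 3.03 CPM (log2 fold change -1.11, SE 0.169). Neither overlapped between the groups, while COL9A1, the third chain of the trimer, was not tested. COL20A1 and COL21A1 did not pass, and the FACIT genes together summed to 181 ± 7.49 CPM in shE6AP and 91.4 ± 1.71 CPM in wobble, of which COL12A1 made 89.9% and 82.3%.

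Type VI had the highest summed level of the collagen classes in wobble, and both of its abundant genes fell. COL6A1 measured 177, 187 and 182 CPM in shE6AP and 245, 239 and 236 CPM in wobble (log2 fold change -0.40, SE 0.033). COL6A2, its neighbour on the chromosome, measured 156, 161 and 152 CPM against 225, 224 and 225 CPM (log2 fold change -0.52, SE 0.0331). Both were lower in every shE6AP library, and their ratio per kilobase was 0.952 ± 0.0246 in shE6AP and 0.873 ± 0.0174 in wobble. COL6A3, the third chain that the common type VI trimer needs, had between 11 and 28 reads in a library; its groups did not overlap, yet it did not pass (log2 fold change -0.41, adjusted p = 0.167 in edgeR). Per kilobase COL6A3 stood at 0.00147 ± 0.000342 of COL6A1 in shE6AP and 0.0015 ± 9.12e-05 in wobble.

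COL17A1, a hemidesmosomal transmembrane collagen of epithelia, measured 25.3, 24.4 and 25.8 CPM in shE6AP and 12.4, 11.3 and 12.4 CPM in wobble. It was higher in every shE6AP library (log2 fold change 1.06, SE 0.0614, adjusted p = 3.21e-19 in edgeR). COL13A1, also transmembrane, stood at 11.4 ± 0.311 and 11.5 ± 0.592 CPM with overlapping groups, and COL25A1 did not pass. COL7A1, whose anchoring fibrils tie the epithelial basement membrane to the tissue beneath, measured 6.98, 6.23 and 5.76 CPM in shE6AP and 10.9, 10.8 and 10.6 CPM in wobble (log2 fold change -0.76, SE 0.0861). All of its shE6AP libraries lay below its wobble libraries.

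COL28A1, a collagen with von Willebrand factor A domains, measured 4.52, 5.43 and 4.92 CPM against 11.7, 12.4 and 12.1 CPM (log2 fold change -1.29, SE 0.0885, adjusted p = 9.43e-17 in edgeR). COL8A2, a network collagen of the corneal endothelium, measured 6.31, 5.90 and 7.01 CPM against 9.05, 9.27 and 9.63 CPM (log2 fold change -0.54, SE 0.0883). Neither overlapped between the groups, whereas COL8A1 did not pass. COL10A1, the growth plate collagen, had at most 4 reads in a library.

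**Figure D3:**
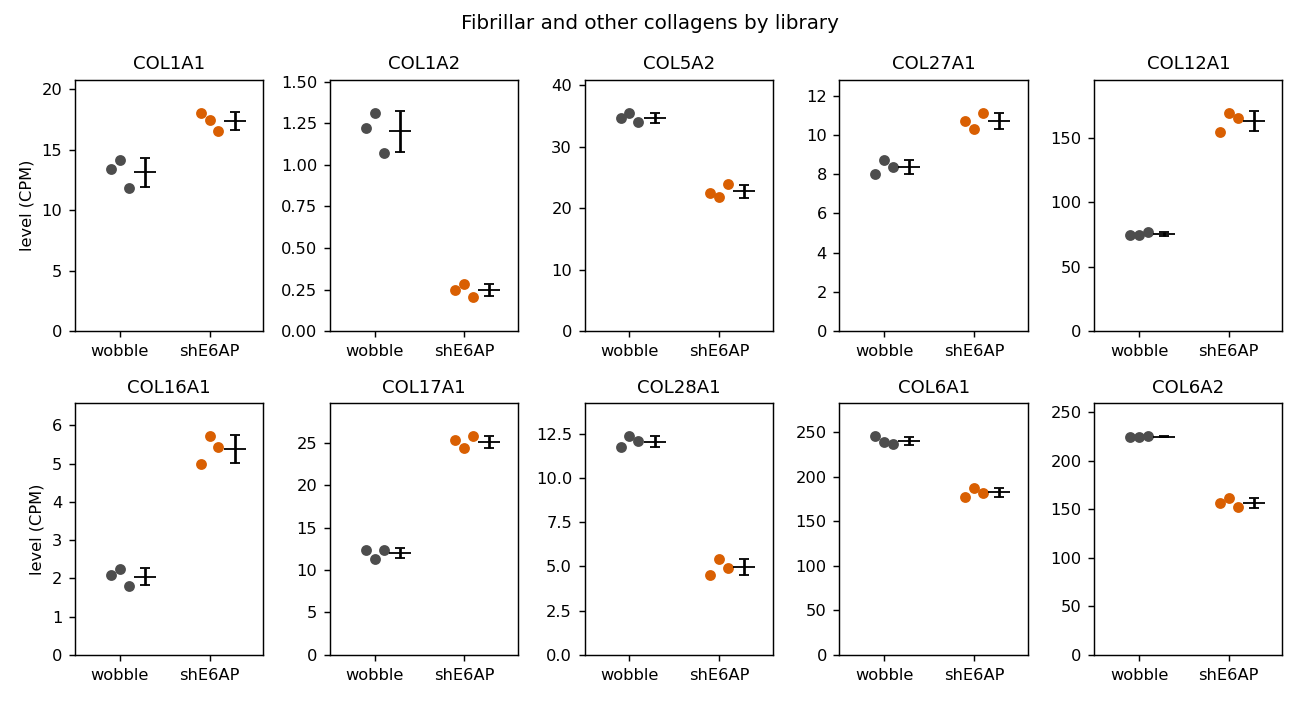
Level in CPM (vertical axis, from 0) of 10 fibrillar and other collagen genes in the 3 libraries of each group (points), with mean and SD beside them. COL1A1, COL27A1, COL12A1, COL16A1 and COL17A1 lie higher in shE6AP, and COL1A2, COL5A2, COL28A1, COL6A1 and COL6A2 lower.

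Fibulins and fibrillins held both the largest fall and, among genes with reads in both groups, the largest rise of the members. FBLN1, a calcium-binding glycoprotein of basement membranes and elastic fibres that binds fibronectin, measured 39.4, 37.6 and 41.2 CPM in shE6AP and 227, 226 and 214 CPM in wobble. No shE6AP library came near a wobble library, and 17.7% of the wobble level remained (log2 fold change -2.50, SE 0.0401, adjusted p = 3.91e-39 in edgeR). FBN1, the main fibrillin of microfibrils, measured 2.03, 1.92 and 2.54 CPM in shE6AP and 9.68, 9.31 and 9.56 CPM in wobble. It was 4.38-fold lower in shE6AP (log2 fold change -2.13, SE 0.113, adjusted p = 1.71e-20 in edgeR). Per kilobase FBLN1 had the highest level of all 55 members in wobble, 76.8 ± 2.51 CPM per kilobase, and the rank 8 level in shE6AP, 13.6 ± 0.629 CPM per kilobase.

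FBLN7, a short fibulin that cells adhere to, measured 6.14, 6.51 and 6.67 CPM in shE6AP and 10.4, 9.72 and 9.67 CPM in wobble (log2 fold change -0.63, SE 0.0858). FBLN5, needed for elastic fibre assembly, had 21.5 ± 1.05 CPM in shE6AP and 27.3 ± 0.743 CPM in wobble (log2 fold change -0.34, SE 0.0539). Both were lower in every shE6AP library. FBLN2, a long fibulin related to FBLN1, went the other way from a low base, with 52, 26 and 30 reads in shE6AP and 7, 3 and 2 in wobble. Its level rose 10.2-fold, to 1.43 ± 0.34 CPM from 0.136 ± 0.0835 CPM (log2 fold change 3.35, SE 0.342, adjusted p = 1.69e-11 in edgeR). FBLN2 passed the low-count filter through the shE6AP libraries alone, so it had to differ and its adjusted p is a description. FBN2 had at most 1 read in a library, and no row is named FBLN3, FBLN4 or FBLN6. The genes also known by the first 2 of these names, EFEMP1 and EFEMP2, fell by 0.21 and 0.33 on the log2 scale. HMCN1, also known as FBLN6, was not tested. It stood at 0.318 ± 0.077 CPM in shE6AP and 0.357 ± 0.0952 CPM in wobble.

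Fibronectin and the matricellular genes ranged from a small fall to large rises. TNC, tenascin C, a hexameric glycoprotein of wounds and tumour stroma, measured 122, 136 and 130 CPM in shE6AP and 52.5, 52.8 and 53.3 CPM in wobble. It was 2.44-fold higher without overlap (log2 fold change 1.29, SE 0.0395, adjusted p = 5.36e-29 in edgeR). FN1, fibronectin, which cells bind through the integrin pair of ITGA5 and ITGB1, measured 55.2, 57.8 and 58.5 CPM against 64.5, 63.2 and 63.7 CPM. That small fall passed (log2 fold change -0.16, SE 0.0394, adjusted p = 0.000538 in edgeR).

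THBS1, thrombospondin 1, an inhibitor of angiogenesis and activator of latent TGF-beta, was the most abundant of these genes, at 219, 223 and 224 CPM in shE6AP and 220, 229 and 237 CPM in wobble. The groups overlapped and the gene did not pass (log2 fold change -0.04, SE 0.0332, adjusted p = 0.287 in edgeR). Its relative THBS2 measured 1.58, 1.03 and 1.42 CPM against 0.925, 1.00 and 0.554 CPM, close to each other at the nearest libraries (log2 fold change 0.71, SE 0.232, adjusted p = 0.00778 in edgeR). This rise was lost with DESeq2 (adjusted p = 0.0565), without shE6AP replicate 1 (0.0773) and without wobble replicate 3 (0.0762). POSTN, periostin, had 24, 13 and 15 reads in shE6AP and 0 in each wobble library. At 0.692 ± 0.13 CPM in shE6AP, it was 20.3-fold above a floor of 3 reads over the wobble group. That fold does not allow for the counting error of the shE6AP reads. The adjusted p was 1.66e-10 in edgeR, but POSTN passed the low-count filter through the shE6AP libraries alone. It therefore had to differ, and the adjusted p is a description. SPARC, which binds collagen and is abundant in fibroblasts, had at most 2 reads in a library.

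**Figure D4:**
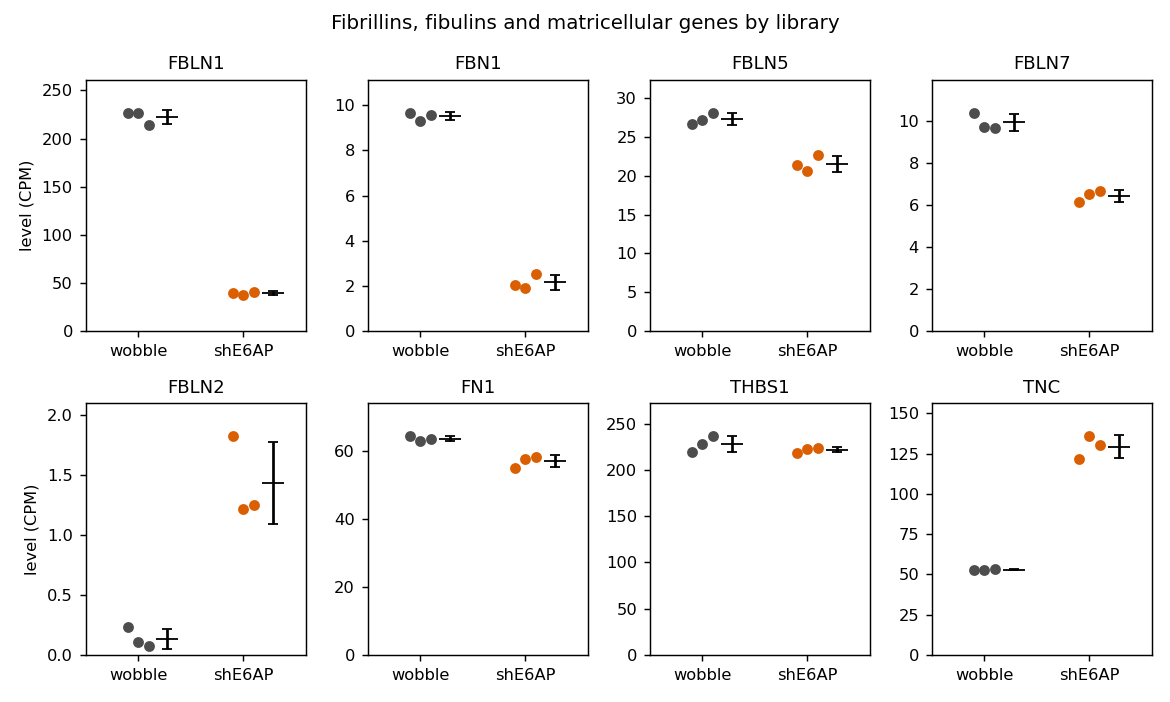
Level in CPM (vertical axis, from 0) of 8 fibrillin, fibulin and matricellular genes in the 3 libraries of each group (points), with mean and SD beside them. FBLN1, FBN1, FBLN5, FBLN7 and FN1 lie lower in shE6AP, FBLN2 and TNC higher, and the groups overlap for THBS1.

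Summed levels differed between the groups of genes. All 43 collagen chains together had 1062 ± 17.1 CPM in shE6AP and 1134 ± 9.7 CPM in wobble, or 93.6% of the wobble level. Type VI went from 466 ± 4.41 to 339 ± 8.59 CPM, the transmembrane collagens from 24.3 ± 0.441 to 37.0 ± 0.276 CPM and the remaining collagens (types VII, VIII, X and XXVIII) from 33.0 ± 0.516 to 18.8 ± 0.25 CPM. The fibrillins and fibulins matched by the symbol rule went from 269 ± 6.86 to 71.0 ± 3.28 CPM. FBLN1 made 82.6% of that sum in wobble and 55.5% in shE6AP. EFEMP1 and EFEMP2, also fibulins, are outside the rule and not in that sum. EFEMP1 went from 348 ± 3.76 to 302 ± 5.24 CPM, a level above FBLN1 in both groups. EFEMP2 went from 7.10 ± 0.175 to 5.63 ± 0.297 CPM. Fibronectin and the matricellular genes went from 346 ± 8.28 to 410 ± 10.4 CPM. Of all gene reads, the 55 members took 0.155 ± 0.00169% in shE6AP libraries and 0.174 ± 0.00198% in wobble libraries (SD, n = 3). These totals are a description and were not tested.

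**Figure D5:**
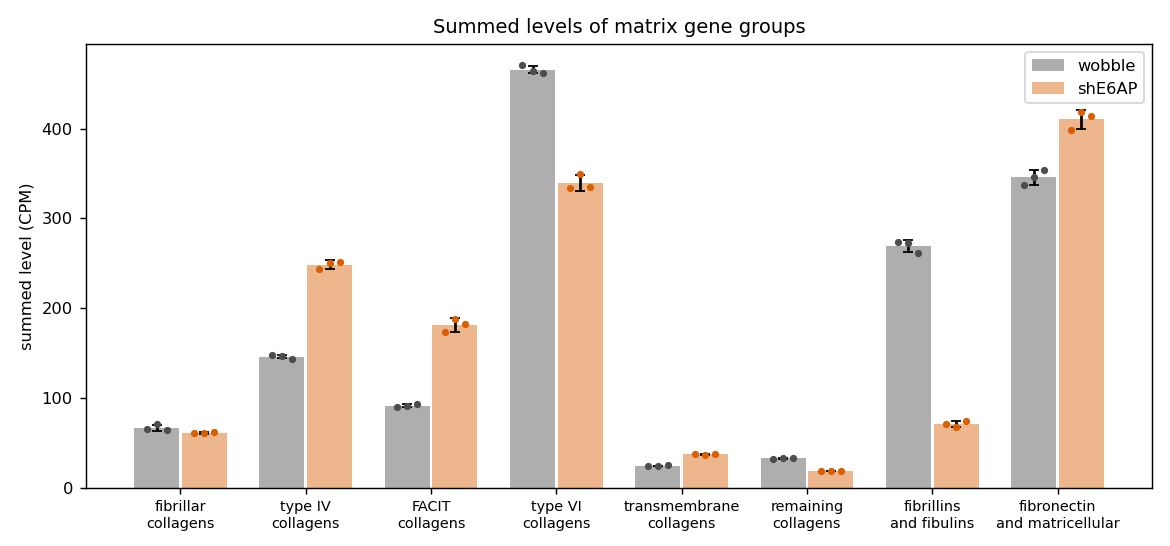
Summed level in CPM (vertical axis, from 0) of 8 groups of matrix genes; bars are means of the 3 libraries of a group, error bars the SD and points the libraries. Type IV, FACIT, transmembrane and matricellular sums are higher in shE6AP. Type VI, remaining collagens, fibrillins and fibulins are lower. Type IV is drawn in place of the basement membrane class, so COL18A1 and COL15A1 are in no bar. That whole class summed to 452 ± 6.67 CPM in wobble and 424 ± 4.54 CPM in shE6AP.

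Per kilobase of transcript, the members with the highest levels in wobble were FBLN1, COL6A2, COL6A1, COL18A1, THBS1, COL4A2 and FBLN5, in that order, and 7 members exceeded 10 CPM per kilobase. COL4A2, at 12.99 ± 0.396 CPM per kilobase, and FBLN5, at 12.9 ± 0.35, did not differ beyond their spread. In shE6AP the order was COL6A2, COL6A1, COL18A1, THBS1, COL4A2, TNC, COL12A1 and FBLN1. There COL6A2 (45.2 ± 1.36) and COL6A1 (43.0 ± 1.18), COL18A1 (29.5 ± 0.168) and THBS1 (28.5 ± 0.337), and COL12A1 (13.9 ± 0.664), FBLN1 (13.6 ± 0.629) and COL4A1 (13.2 ± 0.122) lay close together. The highest fibrillar chain, COL5A2, stood at 4.90 ± 0.113 in wobble and 3.21 ± 0.154 CPM per kilobase in shE6AP.

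The other genes of matrix assembly were read from lists of known components, and each count below stands against 28.6% of all genes tested called higher and 30.4% called lower. Of 12 tested genes of elastic fibres and microfibrils, 9 fell and 2 rose, with a median log2 fold change of -0.39. FBN3 fell by 0.83, LTBP2 by 0.74 and LTBP1, which tethers latent TGF-beta to microfibrils, by 0.67 on the log2 scale. Without shE6AP replicate 3, and likewise without wobble replicate 2, 1 gene of this list rose. Of 17 tested partners of type IV collagen in the basement membrane, 6 rose and 6 fell (median -0.05). Among the 6 that rose, PXDN had 26, 22 and 22 reads in shE6AP and 1, 4 and 0 in wobble. PXDN passed the low-count filter through the shE6AP libraries alone, so it had to differ and its rise is a description. NID1, nidogen 1, which links laminin to type IV collagen, went from 58.2 ± 0.397 to 16.4 ± 0.672 CPM (log2 fold change -1.83), while the laminin chain LAMB3 rose by 1.32 and LAMB1 fell by 1.12. Of 26 tested genes of collagen maturation, 9 rose and 11 fell (median -0.04). PLOD2, a lysyl hydroxylase, rose by 1.81, and LEPREL1 and LEPREL2, prolyl 3-hydroxylases, fell by 1.05 and 1.02.

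Of 13 tested matrix receptors, 9 rose and 0 fell in edgeR (median log2 fold change 0.23), where 28.6% of all genes tested were higher and 30.4% lower. The groups overlapped for 2 of the 9, ITGA1 and ITGA2. At an unadjusted p under 0.05, 0 were lower, and DESeq2 called 7 higher and 0 lower. ITGA5, the alpha chain of the fibronectin receptor, went from 137 ± 3.8 to 277 ± 1.57 CPM (log2 fold change 1.02). DDR2, a collagen-binding kinase, went from 0.926 ± 0.241 to 1.81 ± 0.314 CPM. ITGA11, a collagen receptor chain, went from 0.244 ± 0.0635 to 1.03 ± 0.168 CPM. ITGA11 is among the 9 but passed the low-count filter through the shE6AP libraries alone. It therefore had to differ, and its rise is a description. Of 11 tested matricellular relatives and small proteoglycans, 6 rose and 2 fell (median 0.48). NOV and SPOCK2 rose by 1.23 and 1.02 on the log2 scale. SPOCK1, a matrix proteoglycan, had 30, 30 and 24 reads in shE6AP and 0, 1 and 0 reads in wobble. BGN, also among the 6 that rose, had 29, 14 and 19 reads in shE6AP and 4, 1 and 3 in wobble. SPOCK1 and BGN passed the low-count filter through the shE6AP libraries alone. They therefore had to differ, and their rises are a description.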

How the data were processed

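RNA from 6 libraries was prepared with TruSeq RNA version 2, per the labels' protocols. The deposited table holds whole-number read counts per gene symbol; the authors' tools were Bowtie2, TopHat2 2.0.13 and HTSeq on hg19, per the submitters' processing notes. Which gene annotation was counted, and with which strand option, is not given in the sources used here. The 2 HTSeq summary rows, 1 row without a name and 1 row without values were left out. Of all reads in the deposited table, summary rows included, those in no feature came to between 14.6% and 16.0%. Ambiguous reads came to between 2.05% and 2.21% of the same total, and the unnamed row to at most 4.59e-05%.

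Genes passing edgeR's filter were fitted in edgeR 4.0.16 (R 4.3.3) with TMM scaling and the quasi-likelihood test, shE6AP against wobble, without covariates; p-values were adjusted by Benjamini-Hochberg over all 19433 genes tested. Counts were also simulated for 19433 genes, of which only a small part was given a change. Among genes given a 1.2-fold change the test found 48%, and 82% where the change was 1.5-fold. It found 94% of the genes that were doubled or halved and 100% of those changed 4-fold. In the real data 59.0% of genes were called, and the adjusted p depends on that share. These rates therefore do not give the recovery in the real comparison. Counting depth gave 3 reads a level between 0.0991 and 0.141 CPM, a floor that covers counting error only. Within groups, libraries differed beyond sampling noise (chi-square per gene between 1.76 and 3.52) and were all kept.

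Levels per kilobase used the longest principal transcript in GENCODE v29 (2123 to 11756 bases). Members named with full values were those called with a log2 fold change of at least 0.5 in size and a mean of at least 1 CPM in a group (23 genes), and others are given where a chain or class needs them. The members and lists were chosen with earlier results of these data known. Alternatives were other scalings, no filter or 1 CPM in 3 libraries, DESeq2 1.42.0, limma-voom (limma 3.58.1), a fold threshold of 1.2 (glmTreat), a replicate block, and leaving out each library. Prostate luminal markers are not reported here.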

Additional observations from a re-analysis of the deposited data

How the results depend on the processing

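Of the 29 called members, 28 kept direction and call in each of 14 alternatives in which they were tested, and THBS2 lost its call as given above; a floor of 1 CPM in 3 libraries does not test POSTN. Against a fold of 1.2 (glmTreat), 5637 genes were called over all genes (2553 higher, 3084 lower) and 26 members; 1 fibrillar gene was then higher and 0 fibronectin or matricellular genes lower, since the test asks for more than any change. With type IV alone, 1 basement membrane gene was lower, COL18A1 being left out. Leaving out each library in turn gave between 10708 and 11084 genes called, between 2 and 4 fibrillar genes higher, and between 1 and 2 elastic fibre genes higher.

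Members that did not pass changed sign in some alternatives, and the cause was not tested. COL13A1 came to 0.00682 with upper-quartile scaling and between -0.0664 and 0.00993 without each library. COL21A1 came to -0.000939 without a filter and between -0.128 and 0.127 without each library. COL24A1 ran from -0.0992 to 0.14 and COL25A1 from -0.62 to 0.000884 without each library. Scalings moved the median of all genes by at most 0.0283.

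Same-numbered libraries deviated together only weakly (correlations of 0.0775, 0.0243 and 0.0515), so numbers were not taken as pairs, although each library correlated best with its own number. With a replicate block 11979 genes were called over all genes and 30 members, COL3A1 joining at a log2 fold change of 0.89; it also passed with upper-quartile scaling (0.87). Depth limits the 15 untested members, which had at most 12 reads in a library; without the low-count filter COL4A5 alone of them passed, which made 4 basement membrane genes higher.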
